A study of Mus musculus with 7 samples.

Results

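Cd226, Tigit, Cd96, Crtam and Pvrig encode 5 surface receptors of lymphocytes that bind nectins and nectin-like adhesion molecules. They were followed in RNA sequencing of mouse splenic natural killer (NK) cells with and without the homeobox transcription factor Hhex. The 5 genes were chosen by their symbols from the 53379 genes of the deposited count table, and all 5 passed the filter on low counts that left 12161 genes tested. NK cells of C57BL/6 mice were sorted ex vivo from the spleen as viable C45+ CD3- Nk1.1+ NKp46+ CD49b+ cells (markers spelled as in the labels), with 4 libraries of the genotype Hhex KO, called knockouts below, and 3 libraries of the genotype Cre control, called controls. The labels name no treatment. The promoter of the Cre recombinase, the Hhex allele, and the age and sex of the mice were not stated in the sources used here. The design calls the libraries biological replicates, but whether each came from 1 mouse or from pooled mice is not stated there, so that p-values describe only how these libraries spread.

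Several of these receptors share ligands and compete for them. DNAM-1, the product of Cd226, activates NK cells when it meets CD155 (encoded by Pvr) or nectin-2 on another cell, and it works together with the integrin LFA-1. TIGIT binds CD155 with high affinity and inhibits, CD96 binds CD155 and has been described as a brake on mouse NK cells, and PVRIG, known mostly from human cells, binds nectin-2 and inhibits. CRTAM, found on activated NK and T cells, binds the nectin-like molecule CADM1 and promotes adhesion, cytokine secretion and late cell polarity.

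Total counts ranged from 10589915 to 18456404 per library. The targeted gene Hhex was read at 93.5 to 96.1 CPM, counts scaled to the effective library size, in the controls and at 54.2 to 64.8 CPM in the knockouts, a log2 fold change of -0.70 ± 0.10 (SE; adjusted p = 0.00768, quasi-likelihood test of edgeR, Benjamini-Hochberg adjustment), so it was lower but not absent. The knockout libraries fell into pairs. Between controls, a chi-square test of counts over genes gave 14.4 to 16.1 per degree of freedom. Between knockout replicates 2 and 3 it gave 10.4. Between replicates 1 and 4, less alike than the controls, it gave 25.9, against 62.8 to 71.5 between the pairs. Malat1 and Neat1, long RNAs kept in the nucleus, moved with this split, with Malat1 at 918.0, 154.9, 138.0 and 649.7 CPM in knockout replicates 1 to 4 and 619.4, 242.5 and 382.3 CPM in control replicates 1 to 3. The sample number in the description of knockout replicate 4 is 95, whereas the others run from 20 to 22 and from 26 to 28; the labels name no batch.

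Cd226 was the 1 receptor gene of the family called with edgeR. It was higher in every knockout library, with an estimated fold change of 3.44 (95% confidence interval 2.88 to 4.12). Cd226 (ENSMUSG00000034028.15, chromosome 18, 89176967 to 89272229 on GRCm38) was read at 52.2, 48.7 and 45.8 CPM in control replicates 1, 2 and 3. In the 4 knockouts, in replicate order, it was read at 152.0, 175.7, 178.7 and 167.1 CPM. The groups did not overlap, and the lowest knockout library lay far above the highest control. These levels rest on 554 to 847 reads per control library and 1887 to 3067 reads per knockout library. The knockout mean was 168.4 ± 12 CPM (SD, n = 4), the control mean 48.9 ± 3.20 CPM (SD, n = 3), and the log2 fold change was 1.78 ± 0.11 (SE; adjusted p = 8.9e-05, edgeR). In bulk RNA, more cells that make a transcript and more transcript per cell cannot be told apart.

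Of the 5 receptor genes, 1 was called higher and 0 lower with edgeR at an adjusted p below 0.05 (3 at an unadjusted p under 0.05). An unadjusted p under 0.05 was common: Crtam, with one of 0.0472 (edgeR), ranked only 2182 among the 12161 genes. The unadjusted counts of the gene lists below are to be read beside this rank. Among all genes tested, 4.56% were called, 2.68% higher and 1.87% lower. The library ranges of the groups did not overlap for 2 of the 5, Cd226 in the higher and Cd96 in the lower direction. Of all genes tested 19.3% had such a separation, 9.37% in the higher and 9.98% in the lower direction. Cd226 ranked 13 among the 12161 genes by p-value and 262 by the size of its fold change. Its replicates lay close together: the coefficient of variation was 6.54% in the controls and 7.10% in the knockouts, and the biological coefficient of variation that edgeR fitted was 0.127, against a median of 0.185 over all genes tested. The call held in all 18 alternative settings, with log2 fold changes of 1.71 to 1.85. Of these settings, the model with the level of nuclear RNA and the fits on single pairs of knockout libraries were chosen after the data were seen. A fit on libraries picked for their likeness understates the spread, so calls from it are no independent support.

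**Figure D1:**
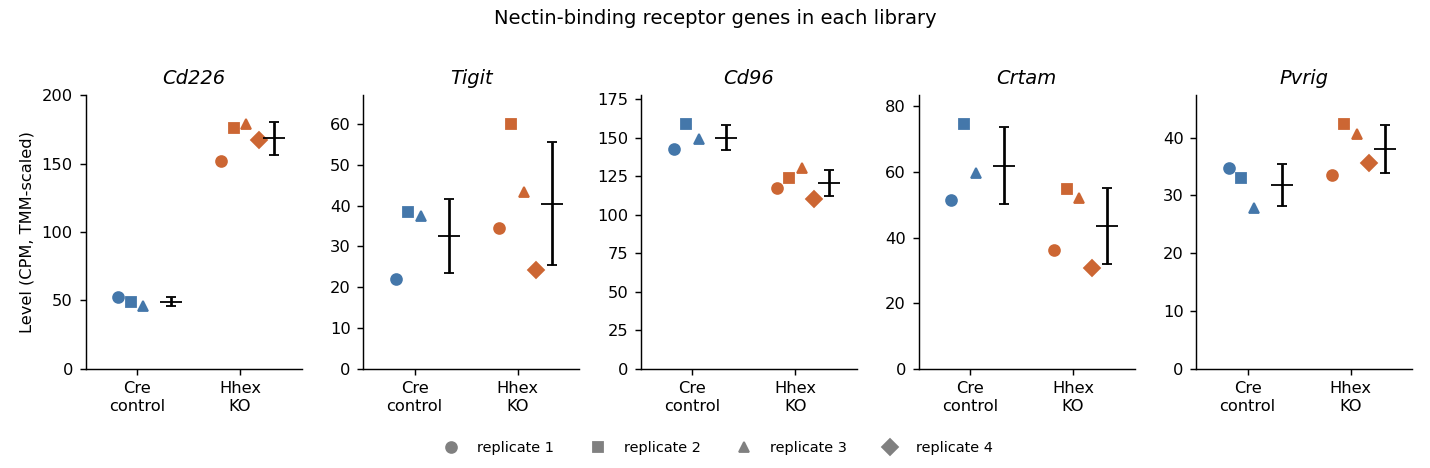
Level of each receptor gene in each library, in TMM-scaled CPM on linear axes that start at 0; each symbol is 1 library, its shape gives the replicate number, and the black bar is the mean ± SD of 3 Cre control (blue) or 4 Hhex KO (orange) libraries. Cd226 rises from 45.8 to 52.2 CPM in the controls to 152.0 to 178.7 CPM in the knockouts, while the ranges of Tigit, Crtam and Pvrig overlap between the groups and those of Cd96 lie close together.

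Tigit, Cd96 and Pvrig, the receptor genes of inhibitory products, were not called in either direction in the main edgeR analysis of all libraries. Tigit (ENSMUSG00000071552.4, chromosome 16, 43648867 to 43664146) stood at 22.1, 38.4 and 37.4 CPM in control replicates 1, 2 and 3, and at 34.5, 59.9, 43.2 and 24.2 CPM in the 4 knockouts, in replicate order. The groups overlapped widely, since knockout replicate 4 was near the lowest control and knockout replicate 2 was above every other library. The log2 fold change was 0.31 ± 0.31 (SE; adjusted p = 0.692, edgeR), with a 95% interval from -0.40 to 1.03. Tigit had the widest spread of the 5 genes, with a biological coefficient of variation of 0.290.

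Cd96 (ENSMUSG00000022657.9, chromosome 16, 46035657 to 46120251) was read at 142.6, 158.8 and 149.3 CPM in control replicates 1, 2 and 3. The 4 knockout replicates gave 117.5, 124.2, 130.5 and 110.3 CPM. All 4 lay below all 3 controls. The log2 fold change was -0.32 ± 0.11 (SE), with a 95% interval from -0.56 to -0.08, and it did not pass the threshold over all genes (adjusted p = 0.144, edgeR). It passed with DESeq2 (adjusted p = 0.0394), with limma-voom and sample quality weights (0.0453) and with the level of nuclear RNA in the model (0.0164); over the 18 alternatives the adjusted p ranged from 0.0164 to 0.416. Whether Cd96 was called lower depended on the test, while its log2 fold change stayed between -0.39 and -0.25.

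Pvrig (ENSMUSG00000109713.1, chromosome 5, 138341961 to 138343557) gave 34.7, 33 and 27.8 CPM in the controls and 33.5, 42.3, 40.7 and 35.6 CPM in the knockouts. The ranges overlapped, because knockout replicate 1 was below the highest control. Its log2 fold change of 0.26 ± 0.13 (SE; 95% interval -0.04 to 0.56) had an adjusted p of 0.349 with edgeR. With limma-voom and sample quality weights the adjusted p was 0.0342, in a range of 0.0342 to 0.719 over the alternatives. With knockout replicates 2 and 3 alone against the controls the adjusted p was 0.0386 (edgeR), but this pair was picked after the data were seen.

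Crtam (ENSMUSG00000032021.14, chromosome 9, 40969691 to 41004628) was read at 51.5, 74.5 and 59.7 CPM in the controls and at 36.3, 54.8, 52.1 and 30.8 CPM in the knockouts. Knockout replicates 2 and 3 reached into the range of the controls, and replicates 1 and 4 lay below it. The log2 fold change was -0.51 ± 0.22 (SE), with a 95% interval from -1.01 to -0.01 and an adjusted p of 0.263 (edgeR). Crtam was past the threshold and lower with the level of nuclear RNA in the model (adjusted p = 0.0044) and with knockout replicates 1 and 4 alone against the controls (0.0212, log2 fold change -0.87). Both settings were chosen after the data were seen. With replicates 2 and 3 alone the log2 fold change was -0.22, and the adjusted p ranged from 0.0044 to 0.599 over the alternatives.

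**Figure D2:**
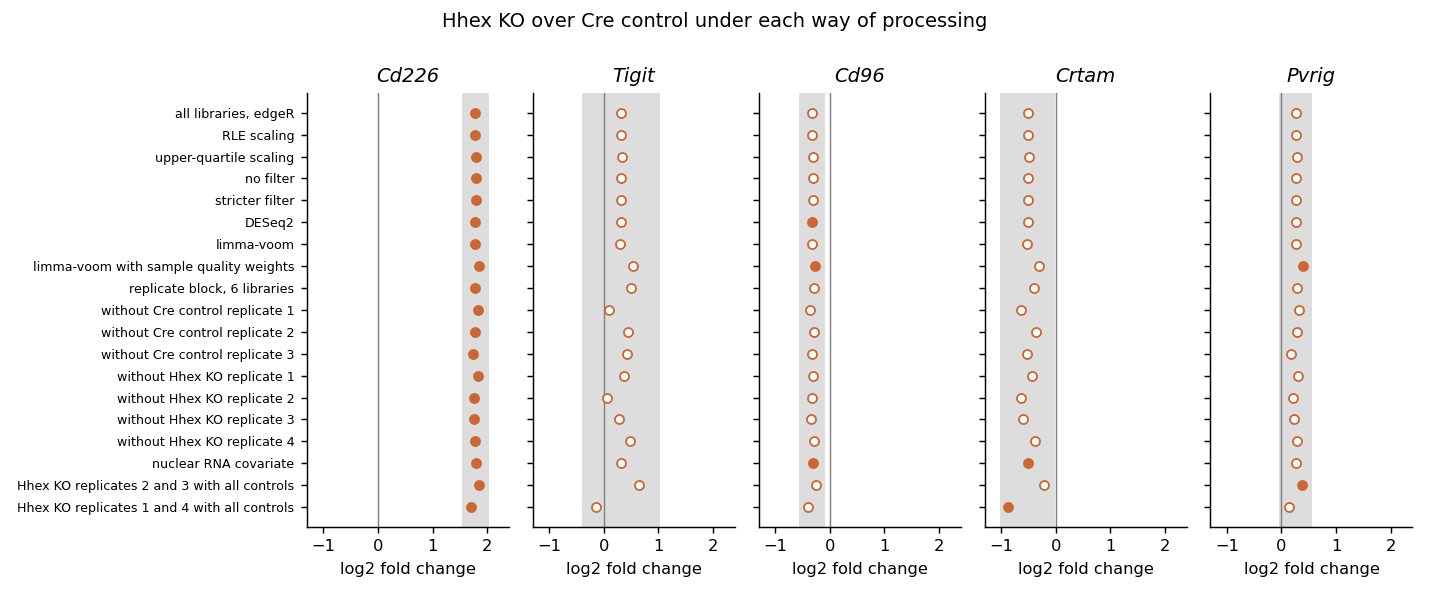
Log2 fold change of each receptor gene, Hhex KO over Cre control, in the analysis of all libraries (top line) and under each of 18 alternatives; filled circles have an adjusted p below 0.05, open circles do not, and the grey band is the 95% interval of the analysis of all libraries. Cd226 stays between 1.71 and 1.85 and filled throughout, whereas Tigit runs from -0.14 to 0.65 and is never filled.

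The spread within the knockouts followed the pairs of libraries in every one of the 5 genes. Replicates 2 and 3 both exceeded replicates 1 and 4 for all 5, an order that 36.4% of all genes tested shared. For Cd226 this order spans 152.0 to 178.7 CPM and is small beside the difference from the controls. For Tigit, Crtam and Pvrig it is wider than the difference between the group means. In the controls, replicate 1, the control with the most Malat1, had the lowest Tigit, Cd96 and Crtam and the highest Cd226 and Pvrig. With knockout replicates 1 and 4 alone, Tigit had a log2 fold change of -0.14, and with replicates 2 and 3 alone one of 0.65; neither was past the threshold. With the mean level of Malat1, Neat1 and Kcnq1ot1 in the model, the log2 fold change of Cd226 was 1.79. The part of RNA quality in the spread of Tigit, Crtam and Pvrig was not tested.

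**Figure D3:**
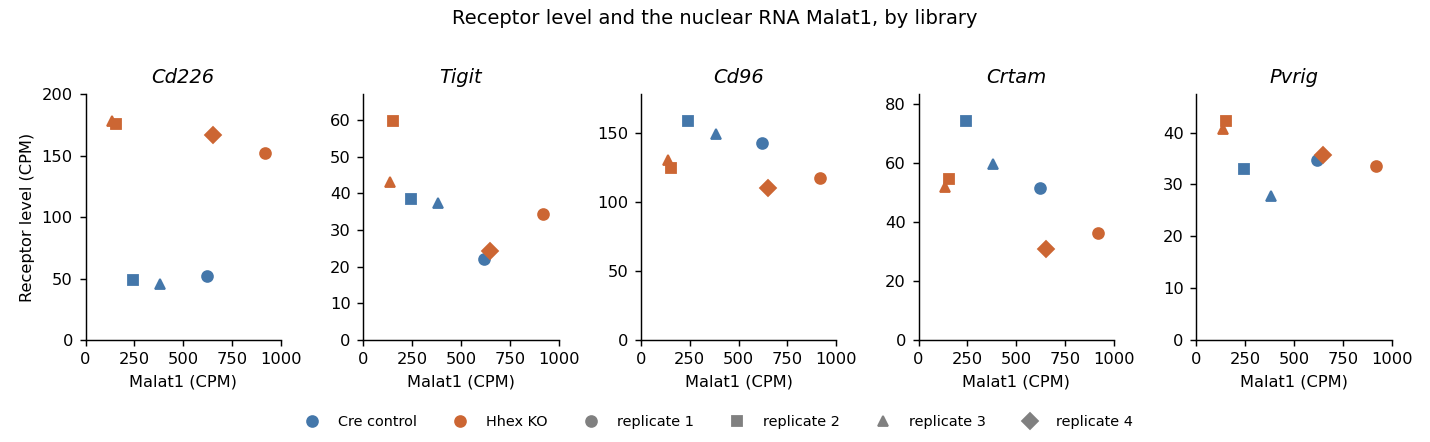
Level of each receptor gene (vertical axis, CPM) against the level of the nuclear RNA Malat1 (horizontal axis, CPM) in the 7 libraries, with Cre control in blue, Hhex KO in orange and 1 shape per replicate number. Knockout replicates 2 and 3, at 138.0 to 154.9 CPM of Malat1, hold more of each receptor RNA than replicates 1 and 4, at 649.7 to 918.0 CPM, and the groups stay apart for Cd226 at both ends.

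Between genes, levels were compared as CPM per kilobase of merged exons. In the controls, Cd96 RNA was the most abundant at 68.8 ± 3.73 CPM per kilobase (SD, n = 3), followed by Tigit at 35.5 ± 9.92, Pvrig at 29.5 ± 3.34, Crtam at 12.1 ± 2.28 and Cd226 at 10 ± 0.653. Tigit and Pvrig overlapped in their library ranges, as did Crtam and Cd226, so that the order within these pairs is not set. In the knockouts, Cd96 was at 55.2 ± 3.97 CPM per kilobase (SD, n = 4), Tigit at 44.0 ± 16.5, Pvrig at 35.2 ± 3.84, Cd226 at 34.4 ± 2.45 and Crtam at 8.47 ± 2.29. The ranges of Cd96 and Tigit, of Tigit and Pvrig, and of Pvrig and Cd226 overlapped there, and Crtam stood apart below the others. By level per kilobase, Cd226 went from above 61.4% of all tested genes in the controls to above 87.0% in the knockouts.

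The make-up of the receptor RNA is given as a description, with no test. Cd226 is part of the sum, so its rise by itself lowers the shares of the others. Of the summed level per kilobase of the 5 genes, Cd226 made up 7.5%, 5.88% and 6.01% in control replicates 1, 2 and 3, and 19.4%, 17.3%, 19.1% and 22.8% in the 4 knockouts, in replicate order. Cd96 made up 42.9% to 45.9% in the controls and 27.4% to 33.7% in the knockouts. The share of Tigit was 16.9% to 26.1% in the controls and 17.5% to 31.4% in the knockouts, so that these ranges overlapped. The sum itself overlapped between the groups, at 142.2 to 169.5 in the controls and 150.0 to 207.9 CPM per kilobase in the knockouts.

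**Figure D4:**
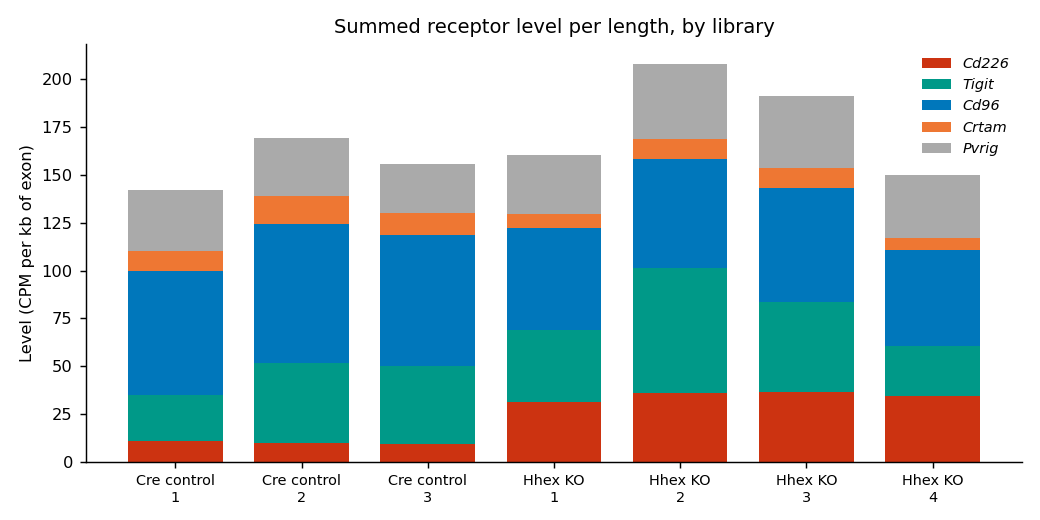
Level of the 5 receptor genes in CPM per kilobase of merged exon, stacked for each library on a linear axis from 0. The Cd226 part at the base is 5.88% to 7.5% of the bar in the Cre control libraries and 17.3% to 22.8% in the knockout libraries.

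Ratios of reads within a library do not depend on how libraries are scaled. There were 0.307 to 0.366 Cd226 reads for each Cd96 read in the controls and 1.29 to 1.51 in the knockouts. Against Tigit, the read ratio of Cd226 was 2.36, 1.27 and 1.22 in control replicates 1, 2 and 3, and 4.41, 2.93, 4.13 and 6.91 in the 4 knockouts, in replicate order. Every knockout library lay above every control, although Tigit itself overlapped. The ratio of Cd226 to Pvrig was the tightest, at 1.48 to 1.65 in the controls and 4.15 to 4.69 in the knockouts. On the log2 scale the group means differed by 2.10 for Cd96, 1.51 for Tigit, 1.53 for Pvrig and 2.32 for Crtam. These ratios are given as descriptions, with no test. Since Cd226 is in each of them, they largely restate its own rise.

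Ligands of the receptors were scarce in the sorted cells. Of 9 nectin and nectin-like genes, 3 had enough reads to be tested, and with edgeR 0 were called (1 at an unadjusted p under 0.05, Pvr). DESeq2 and limma-voom also called 0, and limma-voom with sample quality weights called 2, Nectin3 and Cadm3. Pvr, which encodes CD155, the shared ligand of DNAM-1, TIGIT and CD96, was read at 8.69, 7.22 and 7.62 CPM in the controls and at 13.1, 9.74, 9.90 and 16.7 CPM in the knockouts. The groups did not overlap for Pvr, with a log2 fold change of 0.65 ± 0.22 (SE; adjusted p = 0.152, edgeR). Pvr was past the threshold with the level of nuclear RNA in the model (adjusted p = 0.016) and with knockout replicates 1 and 4 alone (0.0291, log2 fold change 0.93), whereas replicates 2 and 3 alone gave 0.31. These settings were chosen after the data were seen. Knockout replicates 1 and 4 were the highest for Pvr, the reverse of their place for the receptors. Nectin3, at 0.405 and 0.752 CPM on average, and Cadm3, at 1.44 and 1.01 CPM in controls and knockouts, had log2 fold changes of 0.93 ± 0.52 and -0.55 ± 0.61. Over the 7 libraries together there were 22 reads of Nectin1, 8 of Nectin2, 17 of Nectin4, 73 of Cadm1, the ligand of CRTAM, 1 of Cadm2 and 1 of Cadm4.

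Of the signalling partners of DNAM-1, all 16 were tested and 0 were called with edgeR. DESeq2 called 1, Itgb2, limma-voom called 0, and limma-voom with sample quality weights called 2, Itgb2 and Pik3r1. The list holds the 2 chains of LFA-1, the kinase gene Fyn, which phosphorylates the DNAM-1 tail, and adaptors and enzymes further along. Its median log2 fold change was -0.08, against 0.02 over all genes tested. The count at an unadjusted p under 0.05 was 1 of 16, Itgb2, the beta chain of LFA-1, with 2253.7 ± 279 CPM in the knockouts (SD, n = 4), 3053.6 ± 179 CPM in the controls (SD, n = 3) and a log2 fold change of -0.44 ± 0.15 (SE; adjusted p = 0.149). Itgb2 was past the threshold with DESeq2, with sample quality weights, with the nuclear RNA level in the model and with each pair of knockout libraries alone. The nuclear RNA and pair settings were chosen after the data were seen. The alpha chain gene Itgal had a log2 fold change of -0.09 ± 0.20, Fyn one of -0.04 ± 0.12 and the exchange factor gene Vav1 one of -0.02 ± 0.12. Pik3r1, a PI3 kinase subunit, stood at -0.36 ± 0.18, and Prkcq, protein kinase C theta, at -0.16 ± 0.10.

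Of 7 genes tied to inhibitory signals from TIGIT and CD96, 1 was called higher and 0 lower, with edgeR as with DESeq2 and limma-voom. Of all genes tested, edgeR called 2.68% higher and 1.87% lower. The called gene was Inppl1, which encodes the inositol phosphatase SHIP2, a relative of the SHIP1 that TIGIT recruits. Inppl1 was read at 34.8, 28.9 and 33.7 CPM in the controls and at 92.2, 71.7, 60.2 and 60.8 CPM in the knockouts, without overlap. Its log2 fold change was 1.13 ± 0.17 (SE; adjusted p = 0.00957, edgeR), and the call was lost without control replicate 1 (adjusted p = 0.0573) or replicate 3 (0.0584). Inpp5d, the gene of SHIP1 itself, averaged 398.9 ± 63.6 CPM in the knockouts (SD, n = 4) and 395.9 ± 24.3 CPM in the controls (SD, n = 3). Ptpn6 and Ptpn11, the phosphatases SHP-1 and SHP-2, had log2 fold changes of 0.11 ± 0.11 and -0.07 ± 0.14. Arrb2, beta-arrestin 2, stood at 0.11 ± 0.11 and the ubiquitin ligase gene Cblb at -0.22 ± 0.11. The median of the list was 0.03.

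Partners of CRTAM in cell polarity gave no call among 4 genes with edgeR, 0 below an unadjusted p of 0.05, and 0 with DESeq2 or limma-voom with or without weights. Scrib, the scaffold that CRTAM binds, had a log2 fold change of 0.07 ± 0.17, Dlg1 one of -0.18 ± 0.11 and Prkcz, at 1.51 and 1.07 CPM in controls and knockouts, one of -0.49 ± 0.35. Among 10 other inhibitory receptor genes, 7 were tested, and edgeR called 1 higher and 0 lower, with a median of 0.34. Over all genes tested the shares were 2.68% higher and 1.87% lower. DESeq2 called 3, Cd200r1, Cd160 and Klrg1, and limma-voom with sample quality weights also called Vsir. The called gene, Cd200r1, averaged 2.77 ± 0.128 CPM in the controls (SD, n = 3) and 6.31 ± 1.39 CPM in the knockouts (SD, n = 4), and its log2 fold change was 1.19 ± 0.23 (SE; adjusted p = 0.0253, edgeR). With 1 library left out this call held only without knockout replicate 2 or 4, and the adjusted p rose to at most 0.123. Cd160 was at 0.66 ± 0.17 (adjusted p = 0.0676 with edgeR, 0.00511 with DESeq2). Klrg1 was at -0.52 ± 0.13 (0.0643 with edgeR, and lower at 0.00547 with DESeq2). Btla, at 0.946 and 2.26 CPM, was at 1.28 ± 0.58 (0.291), and at 0.62 without knockout replicate 1.

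**Figure D5:**
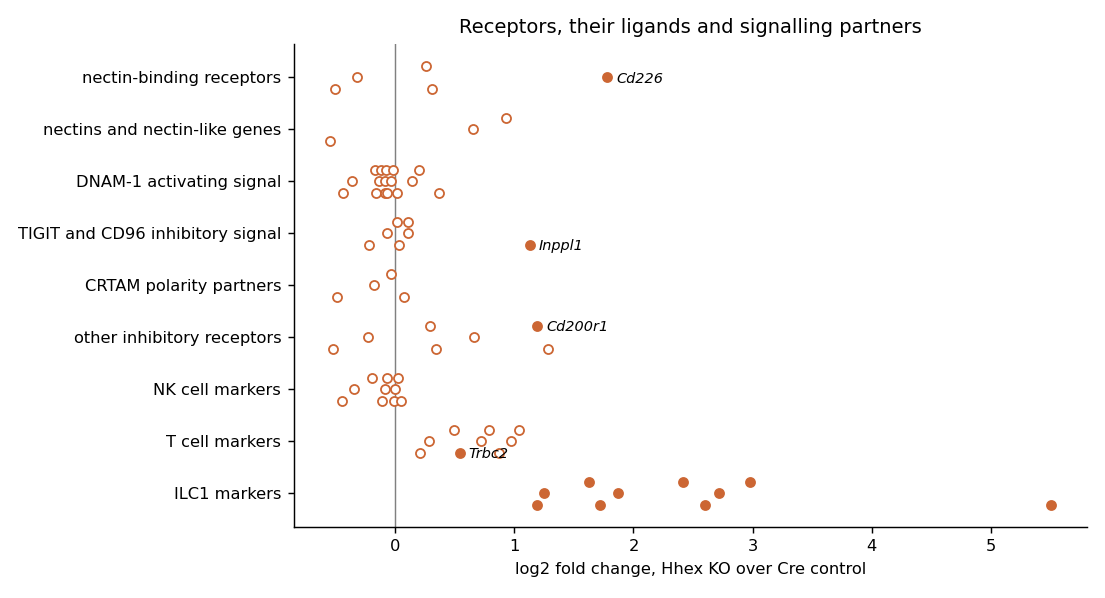
Log2 fold change, Hhex KO over Cre control, of each tested gene in the receptor family, its ligands and partners, and 3 lists of cell markers; each circle is 1 gene, filled where the adjusted p is below 0.05, and the vertical offset within a list only separates the circles. Cd226 at 1.78, Inppl1 at 1.13, Cd200r1 at 1.19 and Trbc2 at 0.54 are the filled circles outside the list of ILC1 markers, whose 10 genes are all filled.

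NK cell markers were abundant, with summed levels of 17153.8 to 21438.9 CPM in the controls and 13675.3 to 18453.5 CPM in the knockouts. Of 10 genes, 0 were called with edgeR (1 at an unadjusted p under 0.05, Prf1), DESeq2 or limma-voom, and Gzma and Il2rb, the most abundant of them, had log2 fold changes of -0.35 ± 0.21 and 0.02 ± 0.23. Markers of type 1 innate lymphoid cells (ILC1), relatives of NK cells, moved with Cd226. All 10 of 10 were called higher with edgeR, against 2.68% of all genes tested. The list was chosen with earlier results of these data known, so this count is no independent support. The summed level was 112.8 to 139.0 CPM in the controls and 543.5 to 732.9 CPM in the knockouts. The markers were Cxcr6, a chemokine receptor gene, at 5.51 on the log2 scale, Il7r at 1.72, Itga1 at 2.72, Tmem176a at 2.98, Tmem176b at 2.42, Zfp683 at 2.60, Tnfsf10 at 1.25, Inpp4b at 1.87, Rora at 1.63 and Cd200r1 at 1.19. With 1 library left out, the calls of Tnfsf10, Inpp4b and Cd200r1 could be lost, with adjusted p up to 0.0585, 0.0673 and 0.123 (edgeR). The calls of the other markers held. The part of ILC1 genes or cells in the rise of Cd226 was not tested.

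T cells also carry DNAM-1, TIGIT, CD96 and CRTAM. Of 12 T cell markers, 9 were tested, and edgeR called 1 higher and 0 lower, with 6 at an unadjusted p under 0.05. For this and the other marker lists, the shares called over all genes tested were 2.68% higher and 1.87% lower. The log2 fold changes of all 9 were above 0, with a median of 0.72, and included Cd3d at 0.97 ± 0.27, Cd3g at 0.72 ± 0.25 and Cd5 at 1.04 ± 0.39. DESeq2 called Cd3d besides Trbc2. The T cell markers had a summed level of 368.3 to 412.8 CPM in the controls and 491.9 to 555.9 CPM in the knockouts. This sum came mostly from Trbc1, Trbc2 and Cd28, at means of 131.5, 102.6 and 92.5 CPM in the controls and 152.2, 149.2 and 112.5 CPM in the knockouts. The called gene was Trbc2, a T cell receptor beta constant segment, with a log2 fold change of 0.54 ± 0.12 (SE; adjusted p = 0.0412, edgeR); that call was lost without any 1 control or without knockout replicate 2 or 3, up to an adjusted p of 0.171, and with the replicate block (0.0536) or with no filter (0.0524). Cd3e, of the complex that the sort selects against, was at 8.75 to 13.6 CPM in the controls and 10.6 to 25.7 CPM in the knockouts. Limma-voom with sample quality weights called 7 T cell markers, all higher. The most abundant one, Trbc1, stood at 0.21 ± 0.27. Cd4, Cd8a and Cd8b1 were near 0, with 74, 17 and 13 reads over the 7 libraries. The part of T cell RNA in the receptor levels was not tested. B cell markers summed to 211.5 to 256.3 CPM in the controls and 240.0 to 404.1 CPM in the knockouts, mostly from Ighm (log2 fold change 0.55 ± 0.18). Of 8 B cell markers 3 were tested. EdgeR called 1, Cd79b, DESeq2 called 2, Cd79b and Ighm, and limma-voom called 0. Cd79b was at 4.61 to 14.5 CPM in the knockouts against 2.02 to 2.77 CPM; its call was lost without any 1 control or without knockout replicate 2, and with limma-voom (adjusted p = 0.0538). Myeloid markers ranged from 22.6 to 500.1 CPM in the knockouts and from 53.2 to 143.1 CPM in the controls, with the top in knockout replicate 2, and 0 of 6 tested were called with edgeR, DESeq2 or limma-voom, or had an unadjusted p under 0.05. Without replicate 2 the log2 fold change of Cd226 was 1.76, and without replicate 1, which has the most Cd79b, it was 1.83. Red cell and platelet markers summed to 4.96 to 21.9 CPM in the knockouts and 19.6 to 33.7 CPM in the controls, with 0 of 5 tested called with edgeR (3 at an unadjusted p under 0.05) and 2 with DESeq2. Itga2b and Ppbp, the most abundant of them, had log2 fold changes of -1.19 ± 0.35 and -1.36 ± 0.47.

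The 5 genes lie on 4 chromosomes, and Tigit and Cd96 are 2.37 Mb apart on chromosome 16. Their exons share no base with exons of another gene on either strand in GENCODE M21, so overlapping or antisense genes do not add to their counts by annotation. In the main edgeR analysis 0 of the 4 nearest tested neighbours of Cd226 were called, with 2 at an unadjusted p under 0.05, Rttn and Socs6. Rttn was called with DESeq2 (adjusted p = 0.0472) and with limma-voom and sample quality weights (0.0482). EdgeR called it with the nuclear RNA level in the model (adjusted p = 0.0195) and with knockout replicates 1 and 4 alone (0.0496), settings chosen after the data were seen. Rttn, 46.0 kb before Cd226, had a log2 fold change of 0.41 ± 0.12 (SE; adjusted p = 0.0940, edgeR) and Socs6 one of -0.34 ± 0.10 (0.106). Tmx3 and Gm45871 on the other side stood at -0.04 ± 0.12 and -0.23 ± 0.31. EdgeR called 4.56% of all genes tested, and of the 20 nearest tested neighbours of the 5 genes, 2 on each side, it called 1. It was Trat1, an adaptor of the T cell receptor, 2610 kb after Cd96, at 2.75 to 4.42 CPM in the knockouts against 1.06 to 1.35 CPM (log2 fold change 1.57 ± 0.28, adjusted p = 0.0174), a call that was lost without any 1 control. Between Trat1 and Cd96 lies Nectin3, so that a receptor and a gene of the ligand family are neighbours among the tested genes.

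The remaining neighbours were not called in the main edgeR analysis. B4galt4 lies 4880 kb before Tigit and was read at only 0.418 and 1.73 CPM in controls and knockouts. It was called higher with DESeq2 (adjusted p = 0.025) and with limma-voom and sample quality weights (0.00626). EdgeR also called it with no filter (adjusted p = 0.038), with the nuclear RNA level in the model (0.00806) and with the replicate block (0.0412). The same held with knockout replicates 2 and 3 alone (0.00735) and without knockout replicate 4 (0.0495). Around Tigit, Zbtb20, a transcriptional repressor, stood at 0.66 ± 0.44, B4galt4 at 2.13 ± 0.59, Qtrt2 at 0.49 ± 0.20 and Ccdc191 at -0.28 ± 0.25 on the log2 scale. Before Cd96, Plcxd2 and Abhd10 stood at 0.20 ± 0.19 and -0.10 ± 0.17. Around Crtam, the chaperone gene Hspa8 had a log2 fold change of 0.73 ± 0.33, Ubash3b, a phosphatase of lymphocyte signalling, one of -0.19 ± 0.11, Gramd1b one of 0.31 ± 0.32 and Sorl1 one of 0.34 ± 0.16. Around Pvrig, BC037034 and 6330418K02Rik stood at -0.11 ± 0.25 and -0.19 ± 0.27, Gm10874 at 0.61 ± 0.82, and the pseudogene Pvrig-ps, under 1 CPM, at 0.46 ± 0.77.

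Genes that varied most like each receptor were found by the root mean square difference of log2 CPM over the 7 libraries, each gene centred on its own mean. For Cd226 they were Il7r, the interleukin-7 receptor chain, at a difference of 0.13, Socs2, a suppressor of cytokine signalling, at 0.15, and Lpxn, the adhesion adaptor leupaxin, at 0.19, where the median gene differed by 0.92. A flat profile would differ from Cd226 by 0.885, so a small difference here largely restates a similar fold change. The median gene differed by 0.51 from Tigit, 0.30 from Cd96, 0.47 from Crtam and 0.30 from Pvrig. Il7r averaged 44.9 ± 6.80 CPM in the controls (SD, n = 3) and 147.6 ± 14.7 CPM in the knockouts (SD, n = 4). Between the same groups Socs2 went from 5.56 ± 0.571 to 18 ± 2.09 CPM and Lpxn went from 30.1 ± 3.06 to 82.4 ± 8.09 CPM. The nearest to Tigit were Myadm, Slc16a1 and Gm2a, at 0.11, 0.14 and 0.15, with log2 fold changes of 0.21, 0.42 and 0.35. For Cd96, Srxn1, Rps6ka4 and Wsb2 differed by 0.03 to 0.04, with log2 fold changes of -0.35, -0.31 and -0.26. For Crtam they were Vat1, Mboat7 and Prcp (0.09 to 0.12; log2 fold changes -0.49, -0.34 and -0.61), and for Pvrig the transcription factor gene Batf, Borcs8 and Cfdp1 (0.04 to 0.05; 0.23, 0.20 and 0.35). No gene of the family was among the 3 nearest of another.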

How the data were processed

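Per the submitters' processing notes, STAR, featureCounts and the mm10 build were used; versions, strand setting and annotation release were not stated there. Libraries were strand-marking and read as single ends of 75 bp, per the labels' protocols. The authors deposited whole-number counts for each gene, not normalized, in 7 columns matched to samples by their descriptions; 0 columns were left unused and 0 rows named no gene. Symbols were matched without ID version (99.8% of IDs). Coordinates and exon lengths are from GENCODE M21 on GRCm38, the assembly called mm10.

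Genes were kept by edgeR's filter (minimum count 10, minimum total 15). Libraries were TMM-scaled, and edgeR 4.0.16 in R 4.3.3 compared Hhex KO with Cre control with its quasi-likelihood test (robust fit, group as the sole term). P-values were Benjamini-Hochberg adjusted over 12161 genes and called below 0.05, where 4.56% were called in either direction. A standard error is the log2 fold change divided by the square root of F. Profiles used a prior count of 2. The test was first run on simulated data, where it missed most small changes and made more false calls than the threshold allows for, so that single calls near the threshold and genes not called are both uncertain. With 4 and 3 libraries the smallest exact permutation p is 0.0286, and no permutation test was used. Of the 75-base windows of the receptor transcripts, 2 of 845 in Tigit and 0 in the others occur in another gene.

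Alternatives were upper-quartile or RLE scaling, testing without a filter, a stricter filter (10 CPM in 3 libraries), DESeq2 1.42.0, limma 3.58.1 (voom, then voom plus sample weights), a replicate block, and each library left out. The nuclear RNA covariate and the pairs of Hhex KO libraries were chosen after the data were seen. Pairs picked for their likeness understate the spread, so calls from them are no independent support. The members and gene lists were chosen with earlier results of these data known. Named genes are the receptors, Hhex, Bcl2l11, the 3 nearest profiles whose mean log2 CPM was 2 or more, with no predicted, clone or pseudogene name, the 2 nearest tested neighbours on each side, called list genes with up to 3 others by p, and called or the 2 most abundant markers. Other list genes were named after their values were seen. Bcl2l11 had a log2 fold change of 0.92 ± 0.15.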

Additional observations from a re-analysis of the deposited data

Results flagged for a closer look

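Among 80 values examined in the 4 Hhex KO libraries, 3 had 1 library set far from the other 3 by Dixon's criterion, which chance alone meets in about 1 of 20 groups. None of them is a receptor gene. Trbc2, a T cell marker, was at 175.4 CPM in Hhex KO replicate 3 against 137.0 to 143.6 CPM in the others. Lyz2 and S100a9, myeloid markers, were at 200.3 and 146.2 CPM in Hhex KO replicate 2, against 5.05 to 30.9 and 4.83 to 26.5 CPM in the others. Without replicate 2, Cd226 had a log2 fold change of 1.76 and Tigit one of 0.06.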

How the results depend on the processing

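Cd226 kept its direction and its call in all 18 alternatives. Counts over all genes moved more: against 326 higher and 228 lower genes, a stricter filter gave 186 higher, DESeq2 625 and 469, voom with sample weights 1534 and 1325, a model with nuclear RNA as covariate 1171 and 1048, Hhex KO replicates 2 and 3 alone 1754 and 1790, and replicates 1 and 4 alone 548 higher. With 1 library left out they ran from 91 to 527 higher and from 50 to 291 lower. Calls among the ligands and signalling partners, 1 in the main analysis, were 2 with DESeq2, 5 with weights, 3 with the covariate, 5 with replicates 2 and 3, 3 with replicates 1 and 4, and 0 to 1 with 1 library left out.

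Cd96 was called at -0.32 with DESeq2, -0.27 with weights and -0.31 with the covariate. Crtam was called at -0.50 with the covariate and -0.87 with Hhex KO replicates 1 and 4, and Pvrig at 0.39 with weights and 0.38 with replicates 2 and 3. Tigit turned to -0.14 with replicates 1 and 4. With 1 library left out, log2 fold changes were 1.74 to 1.83 for Cd226, 0.06 to 0.48 for Tigit, -0.36 to -0.28 for Cd96, -0.64 to -0.35 for Crtam and 0.17 to 0.32 for Pvrig. By the longest transcript the level of Cd226 was 10.9 CPM per kilobase in Cre control, below Pvrig at 29.5. In Hhex KO the level of Cd226 was 37.5, above Pvrig at 35.2, with overlapping library ranges. The causes were not tested.

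With the replicate block on 6 libraries, 499 genes were higher and Cd226 stood at 1.78 (adjusted p = 0.00292, edgeR); no other receptor was called. Deviations of same-numbered libraries correlated at 0.326, 0.479 and -0.031, and those of differently numbered libraries at -0.489 to 0.24. So few values cannot tell whether same-numbered libraries were paired.

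Among the other genes that changed sign, 1 value passed the threshold, Gm10874 with knockout replicates 2 and 3 (adjusted p = 0.0494, edgeR). With Hhex KO replicates 1 and 4, Cadm3 was at 0.18, Il2rb -0.38, Lyz2 -1.36, Myadm -0.33, Gm2a -0.04, Gm45871 0.14, Ccdc191 0.02, Abhd10 0.05 and BC037034 0.26. With replicates 2 and 3, Scrib was at -0.22, Trbc1 -0.25, Tmx3 0.06, Zbtb20 -0.25, Plcxd2 -0.14, Gramd1b -0.36 and Gm10874 -1.56. With weights, Scrib was at -0.13, Trbc1 -0.10, Tmx3 0.05, Zbtb20 -0.03, Plcxd2 -0.06, Gramd1b -0.18, Pvrig-ps -0.32 and Gm10874 -1.25. Limma-voom gave Il2rb -0.04, Lyz2 -0.59 and Gm10874 -0.13, the covariate gave Gm10874 -0.15, and the block gave Scrib -0.02, Trbc1 -0.09 and Gm10874 -0.32. Leaving out 1 library gave ranges of
-0.04 to 0.15 for Scrib, -0.11 to 0.17 for Il2rb, -0.09 to 0.34 for Trbc1, -1.56 to 1.11 for Lyz2, -0.04 to 0.40 for Myadm, -0.08 to 0.03 for Tmx3, -0.28 to 0.05 for BC037034 and -0.33 to 0.07 for 6330418K02Rik. Of 1253 values of 71 other named genes, 1102 kept direction and call.

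Nectin3, Pvrig-ps and the ligand genes too low to test rest on few reads. A receptor gene that was not called is not shown to be unchanged: the 95% intervals ran from -0.40 to 1.03 for Tigit, from -1.01 to -0.01 for Crtam and from -0.04 to 0.56 for Pvrig.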
